A study of Mus musculus with 6 samples.

Results

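The mouse genes Apc2 and Map1a, which encode microtubule-binding proteins of neurons, were examined for N6-methyladenosine (m6A), a methyl mark on adenosines inside messenger RNA. Their members were the deposited m6A peaks whose summit fell in a window on chromosome 10 from 79758000 to 79783000 for Apc2 and on chromosome 2 from 121115000 to 121137000 for Map1a, in mm9 coordinates. These windows were selected on the peaks themselves, since both hold runs of enriched regions that are among the longest in number in these lists. Every peak value below is therefore a description, and no test was made on it. The windows held 107 of 90215 peaks, which merged into 38 of 43377 regions. A region is a stretch in which peaks of different lists share at least 1 base.

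The 6 libraries came from polyadenylated RNA of whole mouse brain: 3 were immunoprecipitated with an m6A antibody (m6A IP 1, 2 and 3), and 3 were inputs that saw no antibody. The labels name the tissue and the antibody and give no strain, genotype, age or treatment, and they do not say whether the replicates were separate animals, so the spread between them may be technical. Each of the 3 peak lists sets 1 IP against 1 input. After removal of duplicates the IP libraries held 5676427 to 6493926 tags and the inputs 7185922 to 11589632. m6A IP 3 gave the shortest list, 24686 peaks against 32858 and 32671. The lists carry neither gene names nor strand, so the tissue label was not checked against marker genes.

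m6A is deposited on nascent transcripts by a methyltransferase complex, is bound by reader proteins of the YTH family, and is known to concentrate near stop codons and within long internal exons. Its usual sequence setting is the adenosine of GGACT and similar letters. Apc2 is the neuronal relative of the tumour suppressor Apc; it binds microtubules and takes part in beta-catenin turnover and axon guidance. Map1a is a large structural protein of the microtubules of mature neurons, abundant in dendrites, made as a polyprotein that is cut into a heavy and a light chain.

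Both genes have very long exons. In the GENCODE vM21 models on GRCm38, the transcript of Apc2 with the longest coding sequence has 15 exons and the last measures 7231 bases, longer than the longest exon of 98.7% of 21951 protein-coding genes. The fifth of the 7 exons of Map1a measures 8104 bases, longer than that of 99.1% of genes. The median gene has a longest exon of 1186 bases. That exon holds 72.2% of the coding sequence of Apc2 and 89.6% of that of Map1a. Among 27 microtubule-binding and tubulin genes listed for comparison, all of them found in the annotation, Map1a ranked 2 and Apc2 ranked 4 by longest exon, and the list's median was 3001 bases. Apc, the paralogue of Apc2, ranked 1 with 10548 bases, and Map1b, the paralogue of Map1a, ranked 5 with 6490. Peaks could not be placed on these exons, because the models are on GRCm38 and the peaks on mm9.

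The coding sequences were searched, on the transcript strand, for GGACT and for AGACT, for GAACT as well as for GGACA, 4 forms of the m6A setting, with overlaps allowed. Over whole transcripts, GGACT alone is found in 86.8% of the longest-coding transcripts of all genes, 12 times in that of Apc2 and 17 times in that of Map1a. Within the coding sequence it is found 8 and 12 times. That is 1.16 and 1.33 per kb of coding sequence, against a median of 1.03 over all genes. Of all 4 forms the coding sequence of Apc2 had 35, or 5.07 per kb of coding sequence, and that of Map1a had 61, or 6.75 per kb, against a median of 4.89 over all genes. Of these, 21 of 35 lay in the longest exon of Apc2 and 57 of 61 in that of Map1a. The 150 coding bases of each gene in which the forms lie closest together are shown as examples of this setting, with the matches in capitals. They are transcript positions 317 to 466 of Apc2, outside its longest exon, and 4900 to 5049 of Map1a, inside its longest exon, in the GENCODE transcripts.
Apc2: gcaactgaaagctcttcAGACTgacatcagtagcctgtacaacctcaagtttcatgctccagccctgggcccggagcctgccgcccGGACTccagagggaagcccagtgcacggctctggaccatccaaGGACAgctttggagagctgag
Map1a: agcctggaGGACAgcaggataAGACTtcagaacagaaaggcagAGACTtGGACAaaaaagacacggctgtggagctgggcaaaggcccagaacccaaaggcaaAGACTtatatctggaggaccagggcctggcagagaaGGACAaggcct
The Apc2 stretch holds 3 matches, a number that 47.9% of genes reach or pass in some 150 coding bases. The Map1a stretch holds 6, which 0.679% of genes reach. A longer coding sequence offers more stretches to choose from, and that of Map1a has 9042 bases against a median of 1173 over all genes. No allowance was made for this length. In matches per kb Map1a was at percentile 79.4 of all genes and Apc2 at 53.3. A match is a run of letters, and whether any of these adenosines is methylated was not tested.

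Peaks of the 2 windows were laid out in the same order. Each window had a small group at its start, then an empty stretch with no peak in any list, then a dense series of regions. In Apc2, 2 regions stood before an empty stretch of 9.86 kb, and 17 regions followed within 8.43 kb. In Map1a, 1 region stood before an empty stretch of 9.51 kb, and 18 followed within 10.04 kb. Within these dense series the widest gap was 981 bases in Apc2 and 965 bases in Map1a. Regions covered 67.5% of the dense series of Apc2 and 53.9% of that of Map1a. Both genes lie on the plus strand in GENCODE.

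**Figure D1:**
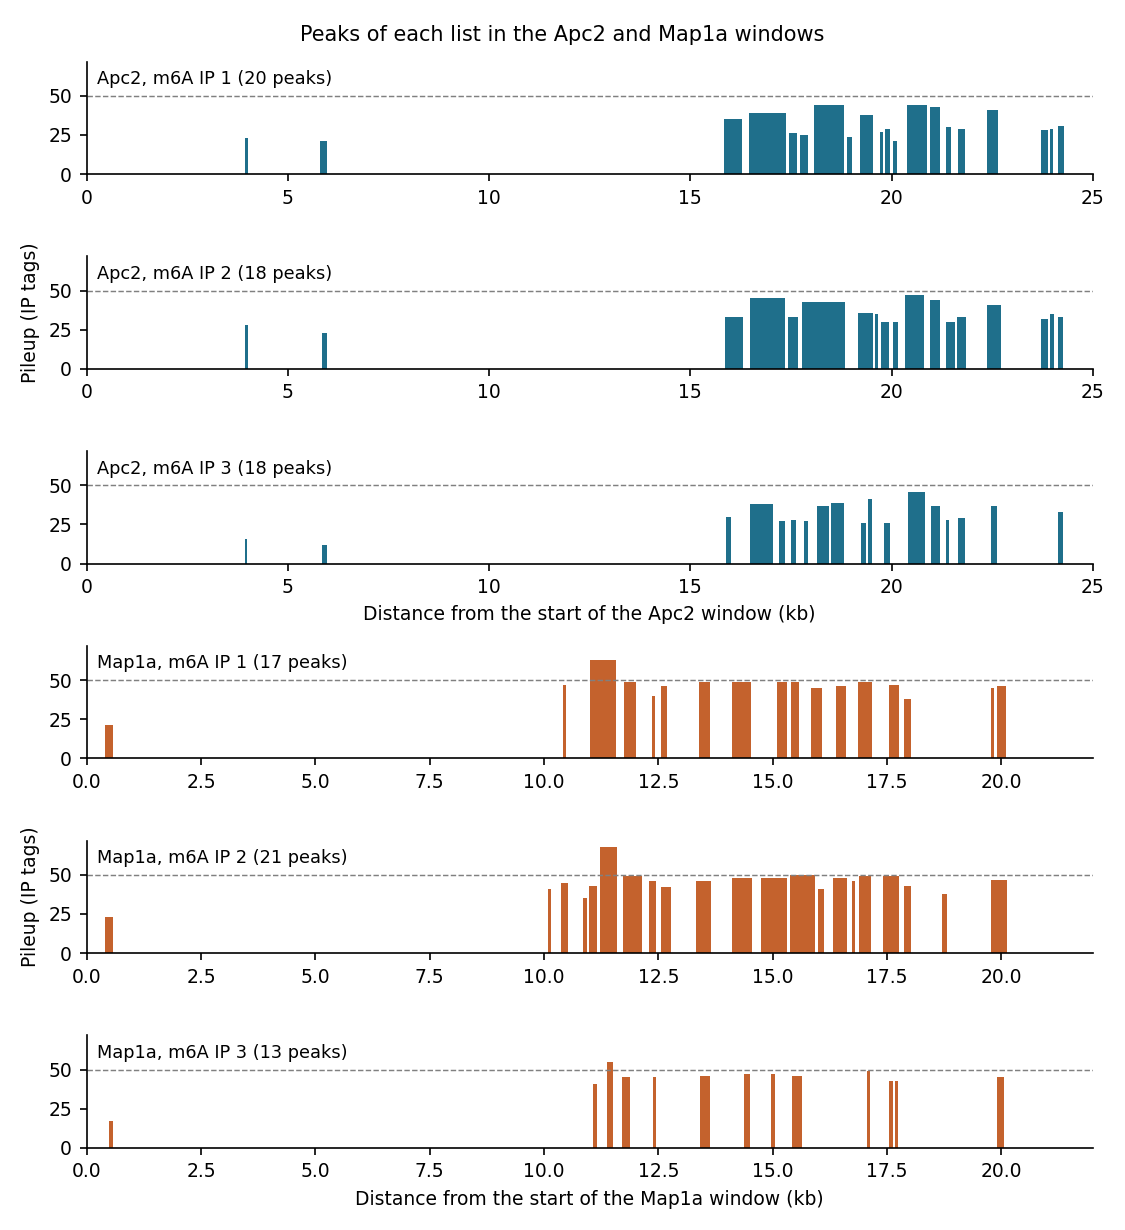
Peaks of m6A IP 1, 2 and 3 in the Apc2 window (upper 3 rows) and the Map1a window (lower 3 rows); each bar spans a peak along the x axis (kb from the start of the window), its height is the highest pileup of the peak in IP tags, and the dashed line marks 50 tags. Both windows show a few low peaks, an empty stretch of over 9 kb and a dense series, which reaches 47 tags in Apc2 and 68 in Map1a.

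Window edges did not separate the genes from their neighbours cleanly. A region found in all 3 lists began 81 bases past the end of the Apc2 window, with pileups of 28, 28 and 22 tags, while the last region inside (number 19, from 79782125 to 79782275) had 31, 33 and 33. At the end of the Map1a window, a peak of m6A IP 1 alone, with 25 tags, began 31 bases outside, and the last region inside had 46, 47 and 45 tags. In the RefSeq models on GRCm38 the gene 2310011J03Rik overlaps the end of Apc2, and Ppip5k1 overlaps the end of Map1a. The gap between genes, negative where they overlap, was -3 and -276 bases at these ends. At the starts, the long noncoding gene Gm30682 overlaps Apc2 and Trp53bp1 overlaps Map1a, with gaps of -2372 and -6765 bases. Apc2 is 22302 bases long in those models, and its window spans 25001. With no strand in the lists, a peak near an edge or in such an overlap cannot be given to a gene.

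The Apc2 window had 20, 18 and 18 peaks in m6A IP 1, 2 and 3 (18.7 ± 1.15, SD, n = 3), in 19 regions of which 14 were found in all 3 lists, as were 38.6% of all regions. Where a list held several peaks in a region, the highest pileup, fold and background among them were taken separately, so they need not come from 1 peak. The pileup of a region, meaning the most IP tags stacked on any of its bases, averaged 33.6 ± 2.11 (SD, n = 3) over these 14 regions. The local input background, the number of scaled input tags expected at the peak, averaged 7.84 ± 0.417, and the fold of IP over that background 4.27 ± 0.433. The values by list were 33.8, 35.6 and 31.4 tags for pileup and 4.298, 4.69 and 3.82 for fold. m6A IP 3 was the lowest of the 3 in both, though its background was the highest, at 8.25 tags against 7.41 and 7.85.

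Region 4 of Apc2, 921 bases from 79774468 to 79775388, had folds of 4.63, 7.09 and 6.34 at pileups of 39, 45 and 38 tags. These were the highest folds of the dense series in m6A IP 2 and 3, while in m6A IP 1 regions 16, 18 and 13 were higher, at 4.76, 4.73 and 4.68. The peaks with these values had backgrounds of 7.63, 5.49 and 5.15 tags, the highest of them in m6A IP 1. Region 6, from 79775721 to 79776834, was the longest at 1114 bases. It was 1 peak in m6A IP 2, but 2 peaks in m6A IP 1 and 3 in m6A IP 3, so the number of regions depends on where the peak caller broke the signal. Its folds, 4.43, 3.97 and 4.29, were close in the 3 lists.

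Region 12 of Apc2, from 79778342 to 79778880, had the highest pileups, 44, 47 and 46 tags, at folds of 3.62, 3.93 and 3.53. Its summits lay within 1 base of each other in the 3 lists. Region 16, from 79780364 to 79780727, had 41, 41 and 37 tags with summits within 2 bases. The lowest mean fold of dense-series regions found in all 3 lists was that of region 14, from 79779343 to 79779573. Its folds of 3.05, 3.78 and 2.18 came from 30, 30 and 28 tags. Its pileups barely differed, while its scaled background was 9.16, 7.20 and 12.3 tags. The inputs of the 3 lists were scaled by 0.763, 0.560 and 0.881, and the counting error of the background was not estimated.

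Other regions of the Apc2 dense series found in all 3 lists had mean folds between those of regions 14 and 4. Single lists and pileups did not keep that order, as regions 8 and 5 show below. Region 3, from 79773842 to 79774312, had 35, 33 and 30 tags and folds of 3.83, 3.07 and 3.47. Region 5, from 79775425 to 79775671, had 26, 33 and 28 tags, and its folds of 4.18, 4.75 and 4.40 were the second highest of the series in m6A IP 2 and 3. Region 13, from 79778956 to 79779211, had 43, 44 and 37 tags and folds of 4.68, 4.52 and 3.56. In regions 3 and 13 m6A IP 3 had the lowest pileup, but not in region 5. Region 8, from 79777169 to 79777540, had 38, 36 and 41 tags and folds of 4.15, 2.38 and 3.63, the lowest of them over an input background of 14.6 tags in m6A IP 2. Region 15, from 79779636 to 79779852, had 29, 33 and 29 tags and folds of 3.60, 4.10 and 3.48.

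Both regions at the start of the Apc2 window had low pileups and uneven folds. Region 1, 85 bases from 79761936 to 79762020, had 23, 28 and 16 tags and folds of 7.30, 8.95 and 3.15. Region 2, from 79763807 to 79763981, had 21, 23 and 12 tags and folds of 3.94, 7.40 and 4.71. m6A IP 3 gave the lowest pileup in both, and the lowest fold in region 1 alone. Their summits nevertheless lay within 2 and 5 bases of each other. The exact Poisson 95% interval runs from 6.20 to 21.0 tags for a pileup of 12 and from 14.6 to 34.5 for 23, so these lists overlap in counting error. Such intervals cover counting error only.

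The Map1a window had 17, 21 and 13 peaks (17 ± 4, SD, n = 3), in 19 regions of which 11 were found in all 3 lists. Pileup averaged 46.0 ± 1.77 tags over these 11 regions, the input background 19.0 ± 1.96 tags and the fold 3.005 ± 0.364 (SD, n = 3). By list, the fold was 3.41, 2.90 and 2.71 and the pileup 46.5, 47.6 and 44.1 tags. m6A IP 3 had the lowest pileup and the highest background, 21.2 tags against 18.2 and 17.6.

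Pileups in the dense series of Map1a were nearly level. With the tag length of 50 bases and the limit of 1 tag per position in the file headers, at most 50 tags of 1 strand can cover a base. Region 15, from 121131877 to 121132182, had 49, 49 and 49 tags and folds of 2.16, 2.61 and 1.82. Region 10, from 121129117 to 121129549, had 49, 48 and 47 tags and folds of 1.76, 2.51 and 1.81. Region 12, the longest at 753 bases from 121130372 to 121131124, had 49, 50 and 46. All 10 regions of the dense series that were found in all 3 lists had at least 40 tags in every list, against 1 of 12 in Apc2. That share was not counted over all 16757 regions found in all 3 lists, whose mean pileup had an upper quartile of 32.0 tags. A pileup of 49 has a Poisson interval of 36.3 to 64.8 tags. It holds the pileups of all 10 of these Map1a regions in m6A IP 1 and 3, and all but region 5 in m6A IP 2. The interval takes no account of the limit of 1 tag per position, so nothing is read from this about how level the regions are.

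Region 5 of Map1a, 605 bases from 121125984 to 121126588, was the exception, with 63, 68 and 55 tags. It was the sole region of either window above 50 tags, and it was so in each list. The peaks with these pileups had folds of 3.31, 2.75 and 1.92 over backgrounds of 18.3, 24.1 and 28.2 tags, and the first was the highest fold of the dense series. A second, lower peak of the region in m6A IP 3, with 41 tags, had a fold of 2.09. A region above 50 tags must hold tags of both strands, and which transcripts they came from was not tested.

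The other regions of the Map1a dense series differed little. Region 6, from 121126700 to 121127139, had 49, 49 and 45 tags and folds of 2.49, 2.85 and 2.22. Region 9, from 121128333 to 121128646, had 49, 46 and 46 tags and folds of 2.77, 2.73 and 2.12. Region 11, from 121129742 to 121130316, had 49, 48 and 47 tags and folds of 2.16, 2.25 and 1.81. In all 3 the fold was lowest in m6A IP 3. Region 7, from 121127287 to 121127438, had 40, 46 and 45 tags, and its fold was lowest in m6A IP 1, at 1.97 against 2.71 and 2.38. Region 16, from 121132423 to 121132761, had 47, 49 and 43 tags and folds of 3.04, 2.19 and 1.99. Region 19, from 121134783 to 121135127, had 46, 47 and 45 tags and folds of 3.12, 2.54 and 1.93, so that in these last regions m6A IP 1 was the most enriched.

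Region 1 of Map1a stood apart from the dense series in every value. This region of 173 bases, from 121115410 to 121115582, had 21, 23 and 17 tags, a background of 0.763, 2.80 and 0.881 tags, and folds of 12.5, 6.31 and 9.57. It gave the only peaks of the window with a fold of at least 4, 1 in each list, a fold that 64.1% of all peaks reached, and it alone raised the mean fold of the 11 regions from 2.36 ± 0.295 in the dense series to 3.005. In the dense series the folds ran from 1.76 to 3.31. Region 1 is centred 0.496 kb from the window start, and Trp53bp1 overlaps the start of Map1a in the RefSeq models. Which of these genes region 1 belongs to was not tested.

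**Figure D2:**
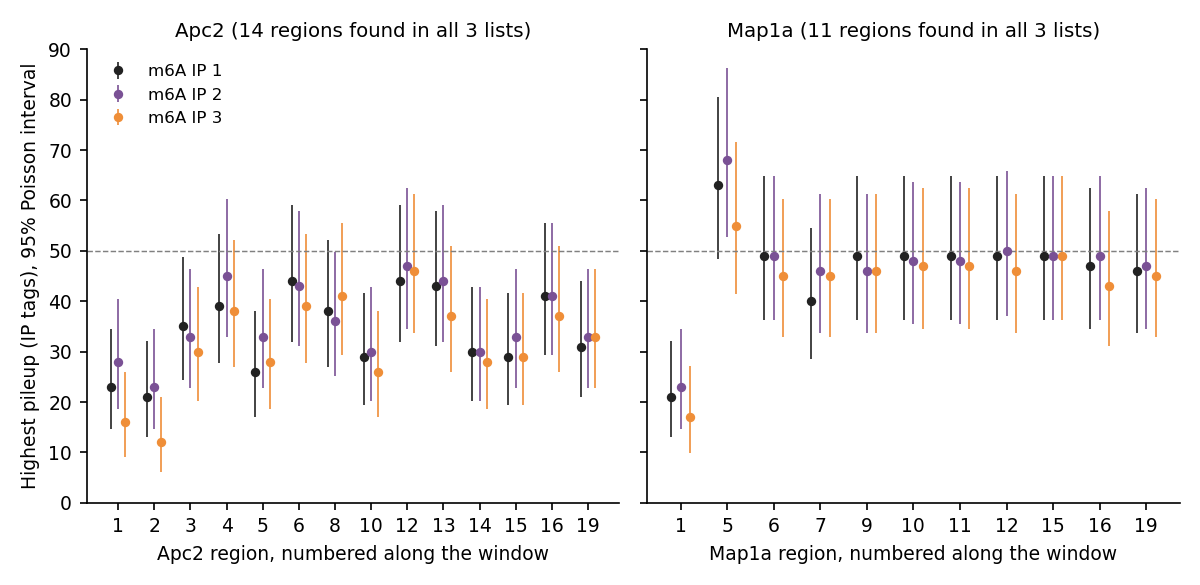
Highest pileup (IP tags, y axis) of each region found in all 3 lists, in order along the Apc2 window (left, 14 regions) and the Map1a window (right, 11 regions); points are the 3 lists, bars are 95% exact Poisson intervals, and the dashed line marks 50 tags. Apc2 regions range from 12 to 47 tags, while those of Map1a after region 1 lie between 40 and 50 tags, except region 5.

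Set side by side, Map1a had the higher pileup and the lower fold. Within each list, the mean pileup of Map1a over that of Apc2 was 1.38, 1.33 and 1.40 (1.37 ± 0.0345, SD, n = 3). The same ratio of the input background was 2.45, 2.24 and 2.58 (2.42 ± 0.170), and that of the fold was 0.794, 0.618 and 0.709 (0.707 ± 0.0878). Each ratio lay on the same side of 1 in all 3 lists. The background is the denominator of the fold, so the last 2 ratios are not independent. A pileup of 45 to 50 tags was found in 3 of 56 peaks of Apc2 (5.36%) and in 33 of 51 of Map1a (64.7%), against 2.34% of all peaks. The lists carry no strand, so whether these Map1a peaks lie at the limit of 50 tags per strand was not tested. Where they do, that limit bounds their pileup and fold, and both ratios with them. The order of the genes also changed with the choice of regions. At a fold of at least 4, where region 1 is all that is left of Map1a, the ratio of the fold was 1.89 ± 0.887 and that of the pileup 0.584 ± 0.0657. At a −log10 q of at least 5, which leaves the same region, they were 2.26 and 0.547, and with peaks that overlap by at least 50% of both, which leaves 2 regions of Map1a, they were 1.33 and 1.04. A peak value says how strongly a stretch was enriched over input and not what share of its molecules was methylated.

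Against all regions found in all 3 lists, Apc2 was above the middle in pileup and below it in fold, and Map1a was near both ends. The median percentile of the Apc2 regions was 76.0 for pileup, 80.6 for background and 28.2 for fold. For Map1a it was 98.5, 99.3 and 1.59. The median region of all had a pileup of 24.0 tags, a background of 3.97 tags and a fold of 5.13. In Map1a, 10 of 11 regions were above the 90th percentile of pileup, and in Apc2 5 of 14 were. Of peaks, 22 of 56 in Apc2 (39.3%) and 3 of 51 in Map1a (5.88%) had a fold of at least 4, and the share among all peaks was 64.1%.

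**Figure D3:**
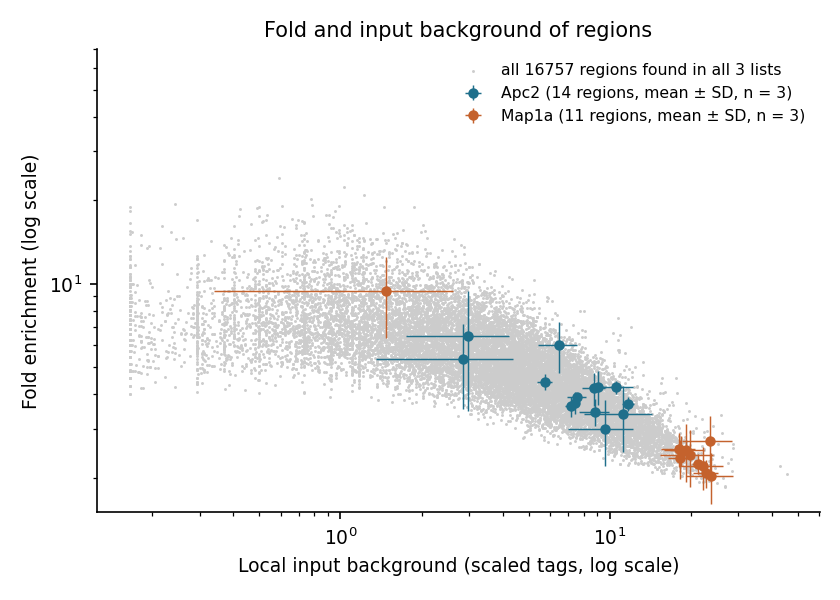
Mean fold enrichment (y axis, log scale) against mean local input background in scaled tags (x axis, log scale) of regions found in all 3 lists; grey dots are all 16757 such regions, and blue and orange points are those of Apc2 and Map1a with the SD over 3 lists. Regions of Map1a gather near the end of high background and low fold, except region 1 at a fold of 9.45, and those of Apc2 lie between them and the bulk.

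More of the Apc2 regions recurred in all 3 lists. The share was 14 of 19 in Apc2 (73.7%, Wilson 95% interval 51.2 to 88.2) and 11 of 19 in Map1a (57.9%, 36.3 to 76.9), against 38.6% of all regions. The intervals of the genes overlap widely, and both windows were chosen for runs of recurrent regions, so nothing is read from these shares. Recurrence depended on how it was defined: with overlaps of at least 50% of both peaks, 8 regions of Apc2 and 2 of Map1a were found in all 3 lists, and with lists of equal length, chosen after seeing the data, Map1a kept 6. Every region found in 2 lists, 3 in Apc2 and 4 in Map1a, lacked m6A IP 3. Of regions found in 1 list, Apc2 had 1 from m6A IP 1 (number 7, with 24 tags and a fold of 2.66) and 1 from m6A IP 2 (number 9, with 35 tags and a fold of 2.95). All 4 of Map1a (numbers 2, 4, 14 and 18) came from m6A IP 2, with 35 to 46 tags and folds of 2.01 to 2.29. Which lists held the regions found in 1 or 2 lists was not counted over all regions. The list of m6A IP 3 was also the shortest, so these counts are not read as traits of the 2 genes.

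**Figure D4:**
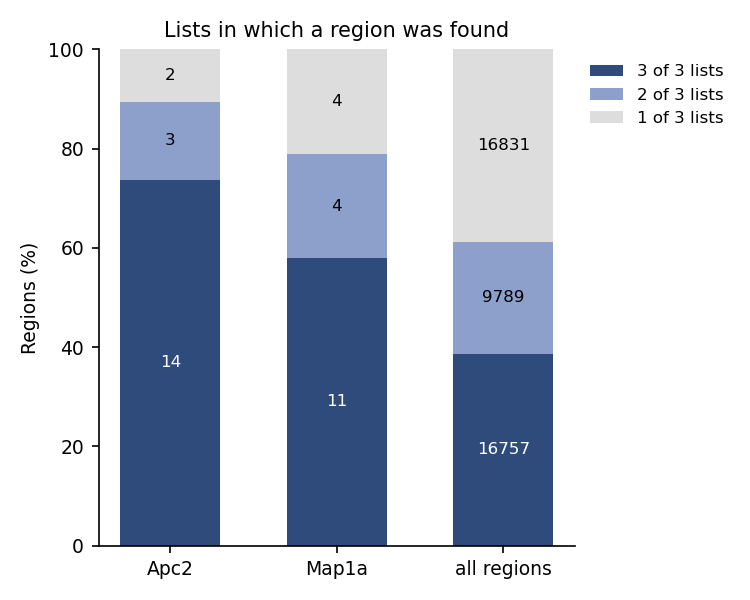
Share of regions (y axis, %) found in 3, 2 or 1 of the 3 lists, for Apc2, Map1a and all regions, with the number of regions in each block. Regions found in all 3 lists number 14 of 19 in Apc2 and 11 of 19 in Map1a.

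The regions of Apc2 and Map1a that only m6A IP 3 missed were not all faint. In Apc2 these were number 11, with 21 and 30 tags in m6A IP 1 and 2, number 17, with 28 and 32, and number 18, with 29 and 35 at folds of 4.73 and 4.35. In Map1a, number 3 had 47 and 45 tags at folds of 2.70 and 2.96, number 8 had 46 and 42 at folds of 2.101 and 2.34, number 13 had 46 and 48 at folds of 1.97 and 2.44, and number 17 had 38 and 43 at folds of 2.49 and 3.05. Some of the missed regions therefore had folds as high as those of regions called in all 3 lists. A −log10 q of at least 5 was reached by 46 of 56 peaks of Apc2 (82.1%) and 19 of 51 of Map1a (37.3%), against 58.7% of all peaks. In m6A IP 3 this held for 12 of 18 peaks of Apc2 and 1 of 13 of Map1a, that of region 1. Of all peaks of m6A IP 3, it held for 13253 of 24686. Peaks of Apc2 covered 5.25, 5.55 and 3.399 kb in m6A IP 1, 2 and 3, and those of Map1a 3.72, 5.39 and 1.61 kb. All peaks of the lists covered 4483, 4439 and 3017 kb. The coverage of m6A IP 3 was thus the shortest in both genes, as it was over all peaks, and more so in Map1a.

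The centres of neighbouring regions found in all 3 lists were a median of 772 bases apart in Apc2 and 781 bases in Map1a. Measured between summits within each list, the medians were 775, 785 and 782 bases in Apc2 (781 ± 5.13, SD, n = 3) and 804, 700 and 723 bases in Map1a (742 ± 54.3), a difference smaller than the spread in Map1a. The likeness did not hold under every choice of regions. Between centres, the medians were 787 and 2162 bases in Apc2 and Map1a with lists of equal length, 1916 and 12994 bases with overlaps of at least 50% of both peaks, and 684 and 1118 bases without m6A IP 2. The shortest distance between centres was 286 bases in Apc2 and 443 in Map1a. Edges of neighbouring regions were a median of 178 bases apart in Apc2 and 355 in Map1a, with the closest at 36 and 55 bases. Regions found in all 3 lists had a median length of 252 bases in Apc2 and 345 in Map1a, against 185 over all such regions. In each gene 4 regions held unequal numbers of peaks in the 3 lists, as where a stretch was called whole in one and in pieces in another. Such regions were not counted over all regions found in all 3 lists.

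Summit positions recurred more closely in Apc2. The summits of the highest peak in each list lay within 20 bases of each other in 12 of 14 Apc2 regions and in 4 of 11 Map1a regions, against 47.7% of all regions found in all 3 lists. The median distance between the outermost summits was 7.5 bases in Apc2, 78 in Map1a and 22 over all regions. The widest in Map1a was region 10, where the summits were 282 bases apart at pileups of 49, 48 and 47 tags. In Apc2 the widest was region 10, with 174 bases at 29, 30 and 26 tags. The part of the 50-tag limit in the scatter was not tested.

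The rank order of regions was compared between lists within each gene. In Apc2, over 14 regions, Spearman's rho of the pileup was 0.905, 0.914 and 0.921 for the 3 pairs of lists, and that of the fold was 0.565, 0.354 and 0.371. In Map1a, over 11 regions, rho was 0.716, 0.844 and 0.512 for pileup and 0.410, 0.441 and 0.747 for fold. Pileup thus gave the higher rho in every pair but that of m6A IP 2 and 3 in Map1a. Many Map1a pileups were tied, and outside regions 1 and 5 all of those ranked lay between 40 and 50 tags. What this does to rho was not tested. Regions of a gene share their libraries and their transcript and are not replicates, so these values have no p.

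The other runs of closely spaced regions gave a measure of how alike these genes were. Runs were regions found in all 3 lists with gaps of at most 1000 bases. That of Apc2 held 11 regions with a mean pileup of 36.1 ± 1.64 tags, a background of 8.76 ± 0.524 tags and a fold of 4.003 ± 0.175 (SD, n = 3). That of Map1a held 9, with a pileup of 48.9 ± 1.71, a background of 20.9 ± 2.14 and a fold of 2.34 ± 0.275. The 3 others with the most regions began at position 141027504 of chromosome 4, position 59999054 of chromosome 11 and position 76005927 of chromosome 15. Their mean pileups were 23.3, 28.9 and 28.1 tags, their backgrounds 3.66, 5.06 and 4.22 tags and their folds 5.35, 5.23 and 6.20. Among runs of at least 8 regions, Map1a had the highest pileup and background and the lowest fold. Apc2 was close to a pair of runs of 8 regions, chosen after their values were seen, which began at position 125414008 of chromosome 8 and position 108012474 of chromosome 9. Their pileups were 36.5 ± 1.63 and 36.4 ± 2.74 tags, their backgrounds 10.2 ± 0.872 and 9.20 ± 1.11 tags and their folds 3.60 ± 0.329 and 4.02 ± 0.410. The median distance between centres was 675 bases in Apc2 and 708 in Map1a, between 480 and 644 bases in the 3 others, and 709 and 648 bases in the runs of 8.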

How the data were processed

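Tags were aligned and peaks called by the authors, with TopHat2 2.1.0, MACS2 2.1.0 and the build mm9 per the submitters' processing notes. Per the file headers, each list was called by MACS 2.1.0.20151222 from 1 IP and 1 input at a q-value cutoff of 0.05, with tags extended to 50 bases, at most 1 tag per position and the larger library scaled to the smaller. The deposited values were the pileup (a coverage signal in IP tags), the fold enrichment (a ratio), −log10 p-value and −log10 q-value. How the aligner was set is not given in the sources used here.

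Peaks with a summit inside a window were taken, and peaks of the 3 lists sharing at least 1 base were merged across the genome. The value of a region in a list was the highest among its peaks, separately for pileup, fold and background. The background was (pileup + 1) / fold − 1. The genes, windows and comparison list were chosen with earlier results of these data known. The text gives Apc2 and Map1a with their regions and, by position, the 3 other runs with the most regions. The 27 microtubule genes served only for properties of GENCODE vM21 and RefSeq (GRCm38) gene models. No coordinate was moved between builds. Merging was tested on simulated lists with at most 1 peak per list in a region, so peaks split within a list were not covered. The alternatives were a −log10 q of at least 5, a fold of at least 4, a reciprocal overlap of 50%, merging over 50 bases and leaving out each replicate. Limiting regions to the densest run and lists to equal length were chosen after seeing the data. Scripts ran under Python 3.11.15 with pandas 2.3.3, numpy 2.4.6, matplotlib 3.10.9 and scipy 1.17.1.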

Additional observations from a re-analysis of the deposited data

How the results depend on the processing

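Of 12 results (5 for each gene, and the 2 ratios of Map1a over Apc2), 106 values were recomputed under 9 alternatives. Of these, 56 stayed within a set margin, 45 moved and 5 changed direction. The margin was the SD over the 3 lists for pileup, fold and their ratios, and the Wilson interval for a percentage. For a distance between centres it was the SD over lists of the median distance between summits, and for a count 1.5 times. With peaks of a −log10 q of at least 5, Map1a kept 1 region in all 3 lists (9.09%; pileup 20.3, fold 9.45) and Apc2 kept 9 (50%; pileup 37.1, distance 766 bases), and the ratios turned to 0.547 for pileup and 2.26 for fold. With a fold of at least 4, Map1a again kept 1 (100%; pileup 20.3, fold 9.45) and Apc2 2 (16.7%; fold 5.23, distance 620 bases), and the ratios turned to 0.584 and 1.89. In both, region 1 was all that was left of Map1a, which gave no spacing. With a reciprocal overlap of at least 50%, Apc2 kept 8 regions (42.1%; distance 1916 bases) and Map1a 2 (10.53%; pileup 33.7, fold 5.996, distance 12994 bases), and the ratio was 1.04 for pileup and turned to 1.33 for fold. Merging peaks up to 50 bases apart gave a distance of 802 bases in Apc2.

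Of the alternatives added after seeing the data, the densest run alone gave pileups of 36.1 and 48.9 in Apc2 and Map1a, distances of 675 and 708 bases, a fold of 2.34 in Map1a and a ratio of the fold of 0.584. Lists of equal length left 6 regions of Map1a (fold 3.66, distance 2162 bases), a distance of 787 bases in Apc2 and a ratio of the fold of 0.853. Without 1 replicate at a time, the share of regions in every list used ran from 75% to 89.5% in Apc2 and from 55.6% to 78.9% in Map1a, and the distance from 570 to 755 bases and from 693 to 1118 bases. The cause of a change was not tested beyond what an alternative removes. No paired analysis was possible because the results come from no test, and the ratios of Map1a over Apc2 were taken within each list. Pileups of 12 to 68 tags limit the precision of every region.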
